A study of Mus musculus with 32 samples.

Results

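Genes of the myogenic programme and of the response of muscle to loss of its nerve were examined in murine mesothelioma tumors, 10 in all: Myog, Myod1, Myf5, Myf6, Pax7, Mef2c, Chrna1, Chrng, Chrnd and Musk. The genes were taken by symbol from a table of 39676 gene counts, and 8 of the 10 had a row there (Myf5 and Myf6 are not analysed here). The list was selected on measured values, namely the higher Myog level in tumors of the pleural cavity in both models, including AE17, where mature muscle genes were not higher there. Every IPL against SC value given here for these genes, also beside or relative to muscle RNA, is therefore a description and carries no test.

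The tumors were grown from AB1 cells in BALB/c mice or from AE17 cells in C57BL/6 mice, both murine mesothelioma lines, in the syngeneic strain. Cells were inoculated into the pleural cavity (IPL) or under the skin (SC), 500000 per mouse for AB1 and 1000000 for AE17, in females aged 8 to 10 weeks, and none of the mice received a treatment. Whole tumors were taken at day 10 after removal of the lungs and surrounding tissue and sequenced as polyadenylated RNA, 8 mice in each of the 4 groups and 32 in all. Each model is 1 cell line in 1 strain, so that line, strain and cell dose cannot be told apart. The totals ran from 15432258 to 20649645 counts per tumor, and 3 counts, taken as the smallest detectable number, corresponded to between 0.145 and 0.194 CPM, the counts scaled to the library's TMM-adjusted total. The sequencing lane, read from the alignment names, overlapped with site and with model. All 8 AB1 IPL libraries and 2 AB1 SC libraries were on lane 3, 6 AB1 SC and 5 AE17 IPL libraries were on lane 2, and 3 AE17 IPL and all 8 AE17 SC libraries were on lane 1.

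Myod1, Myf5, Myog and Myf6 encode the myogenic regulatory factors, basic helix-loop-helix proteins that bind the E-box with an E-protein partner and switch on muscle genes. Pax7 marks the satellite cell, the stem cell of adult muscle, and Mef2c encodes a MADS-box factor that acts with the regulatory factors in muscle but is also used by vascular, neural and lymphoid cells. Chrna1, Chrng and Chrnd encode the alpha, gamma and delta subunits of the muscle acetylcholine receptor, and Musk encodes the receptor kinase that clusters this receptor at the neuromuscular junction. In innervated adult fibers Myog and the fetal gamma subunit are low. Both are known to increase along the whole fiber after denervation and in regenerating fibers.

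The E-box, written here as CANNTG, reads the same on both strands and was looked for in the 250 bases before the RefSeq transcription start (GRCm38.p6), since several of the genes varied together between tumors. An entry was given for 7 of the 10 genes. The windows of the regulator and of the alpha and gamma receptor subunits are shown because their RNA levels are followed through the results, with the E-boxes in capitals. They lie at chr1:134289754-134290003 for Myog (plus strand), chr2:73580339-73580588 for Chrna1 (minus strand) and chr1:87205561-87205810 for Chrng (plus strand), the last inside the longer Chrng gene of the GENCODE annotation.
Myog: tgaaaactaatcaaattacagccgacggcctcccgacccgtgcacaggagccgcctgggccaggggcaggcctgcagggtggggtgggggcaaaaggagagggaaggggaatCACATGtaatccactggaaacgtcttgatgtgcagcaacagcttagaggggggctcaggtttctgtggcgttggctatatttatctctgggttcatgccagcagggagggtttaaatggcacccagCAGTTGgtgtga
Chrna1: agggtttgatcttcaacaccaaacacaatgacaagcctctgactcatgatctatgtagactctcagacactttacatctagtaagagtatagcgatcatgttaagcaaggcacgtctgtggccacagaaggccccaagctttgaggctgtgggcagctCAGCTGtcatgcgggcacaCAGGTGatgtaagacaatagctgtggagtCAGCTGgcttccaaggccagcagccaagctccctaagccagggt
Chrng: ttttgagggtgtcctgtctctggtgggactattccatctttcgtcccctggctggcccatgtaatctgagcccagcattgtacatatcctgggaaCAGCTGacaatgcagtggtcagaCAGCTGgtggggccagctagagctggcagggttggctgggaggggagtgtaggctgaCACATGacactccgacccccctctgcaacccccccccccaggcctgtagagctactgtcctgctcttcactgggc
The Myog window held 2 E-boxes, neither of them CAGCTG, and 31.8% of the 32851 promoter windows of this length held at least 2. The Chrna1 and Chrng windows held 3 each, and 12.2% of windows held at least 3. Of the 3 E-boxes, 2 in each of these windows were the palindrome CAGCTG, and 1.26% of all windows held at least 2 copies of it. Among the windows not shown, that of Musk held 3 E-boxes with 1 CAGCTG, the 3 alternative windows of Mef2c held 2, 0 and 1 E-boxes with no CAGCTG, and those of Pax7 and Myf5 held no E-box. These are matches of letters, and binding was not measured.

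Myog, at chromosome 1 from 134289989 to 134292548 on the plus strand, was low in SC tumors of both models. In AB1 SC tumors it ran from 0 to 1.22 CPM with a median of 0.547 CPM, and in AB1 IPL tumors from 0.159 to 13.99 CPM with a median of 7.09 CPM. In AE17 SC tumors it ran from 0 to 0.975 CPM with a median of 0.422 CPM, and in AE17 IPL tumors from 0 to 10.7 CPM with a median of 2.71 CPM. Of the 8 IPL tumors, 7 lay above every SC tumor in AB1 and 6 did so in AE17. The groups overlapped because AB1 IPL tumor 2, at 0.159 CPM, and AE17 IPL tumors 1 and 8, with no Myog count at all, sat among the SC tumors. The fitted log2 difference, IPL minus SC, was 3.48 (SE 0.632) in AB1 and 3.19 (SE 0.917) in AE17. Within the lane that held both sites it was 2.74 (SE 1.11) for 8 IPL and 2 SC tumors in AB1, and 3.90 (SE 0.977) for 3 IPL and 8 SC tumors in AE17.

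Myod1, the factor that acts before Myog in muscle precursors, followed the same tumors at lower levels. It ran from 0 to 3.91 CPM in AB1 IPL tumors (median 2.26 CPM) and from 0 to 0.412 CPM in AB1 SC tumors (median 0.103 CPM), and 7 of the 8 IPL tumors lay above every SC tumor. In AE17 it ran from 0 to 2.18 CPM in IPL tumors (median 0.659 CPM) and from 0 to 1.07 CPM in SC tumors (median 0.207 CPM), with 2 of the 8 IPL tumors above every SC tumor. Pax7 was close to the smallest detectable level. Only in AB1 IPL tumors did as many as 4 of 8 reach 3 counts, with a highest value of 0.697 CPM, against 1 AB1 SC, 0 AE17 IPL and 2 AE17 SC tumors, and no fold is given for it.

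Mef2c had the highest median CPM of the 8 genes in each group, and its values by site differed between the models. It ran from 14.3 to 18.6 CPM in AB1 SC tumors and from 18.1 to 69.0 CPM in AB1 IPL tumors, where tumors 1, 3 and 7 stood at 54.0, 69.0 and 51.2 CPM and 7 of 8 lay above every SC tumor. In AE17 the groups lay over each other, from 29.5 to 50.0 CPM in IPL tumors and from 24.03 to 49.3 CPM in SC tumors. The log2 difference between sites was 1.13 (SE 0.257) in AB1 and 0.99 (SE 0.542) within its lane, against -0.12 (SE 0.149) in AE17 and -0.19 (SE 0.212) within its lane. The site difference was larger in AB1 than in AE17 by 1.27 (SE 0.306) on the log2 scale.

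**Figure D1:**
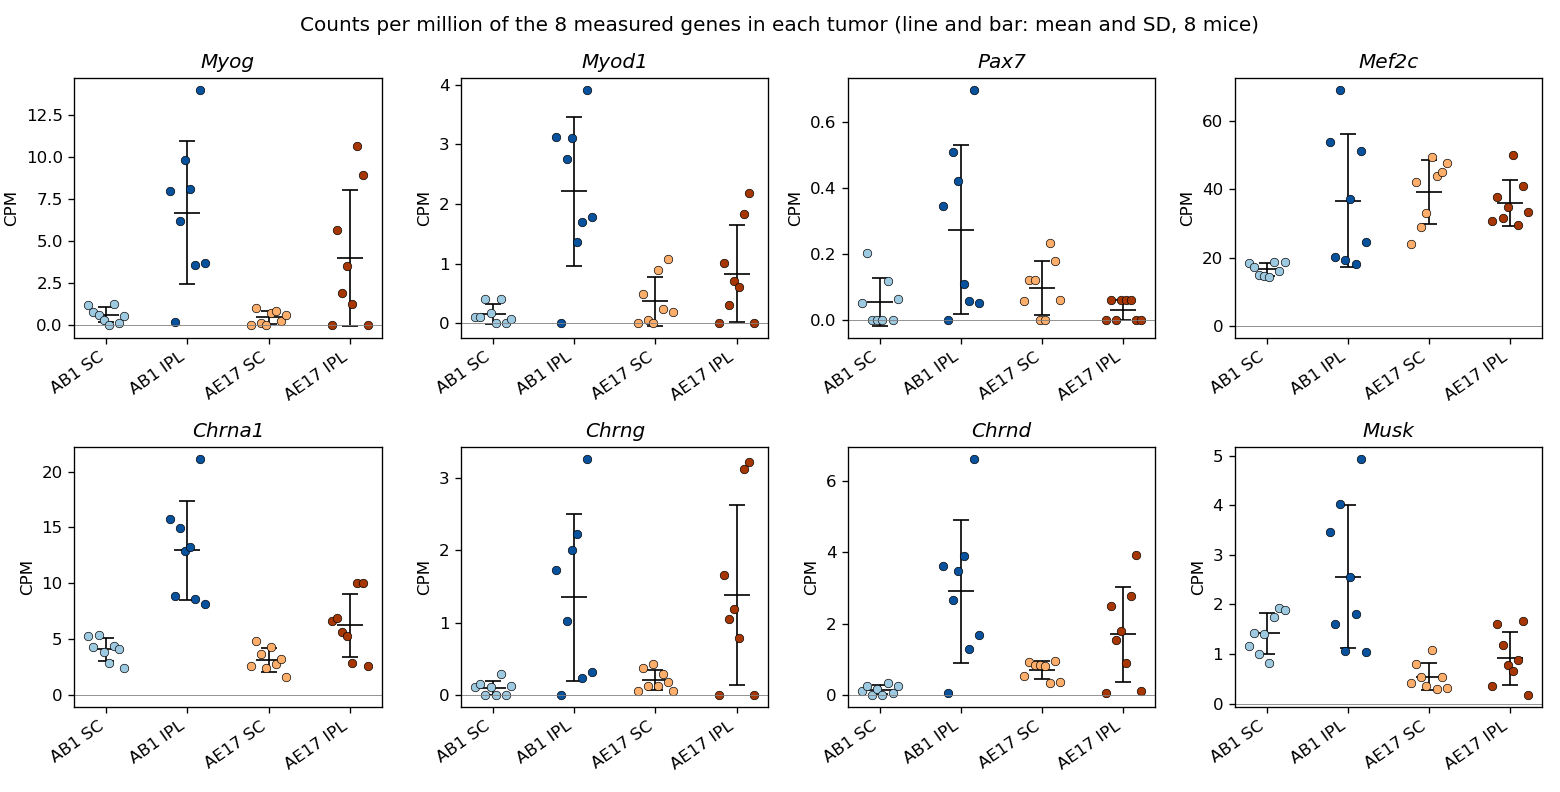
CPM (linear vertical axis, its own scale in each panel) of the 8 measured genes in each of 32 tumors, 8 per group, with the group mean as a line and the SD as a bar. Myog, Myod1, Chrng and Chrnd lie near 0 in SC tumors and spread widely in IPL tumors, with AB1 IPL tumor 2 and AE17 IPL tumors 1 and 8 near 0, while Chrna1 and Mef2c stay well above 0 in every tumor.

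Among the receptor subunits, Chrna1 (chromosome 2, 73563215 to 73580338, minus strand) separated the sites in AB1. Its AB1 IPL values ran from 8.14 to 21.1 CPM (median 13.1 CPM) and its AB1 SC values from 2.46 to 5.36 CPM (median 4.22 CPM), so that the groups did not overlap. It was the only 1 of the 4 members tested in AB1 without overlap, where 5.03% of the genes tested had none. In AE17 it ran from 2.56 to 10.1 CPM in IPL tumors and from 1.58 to 4.82 CPM in SC tumors, and 6 of 8 IPL tumors lay above every SC tumor. No member tested in AE17 was free of overlap between the sites, as 0.573% of genes were. The log2 difference was 1.65 (SE 0.211) in AB1 and 0.99 (SE 0.286) in AE17, with 1.37 (SE 0.374) and 1.25 (SE 0.380) within lane.

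Chrng, the gamma subunit of the fetal receptor (chromosome 1, 87204657 to 87212694, plus strand), was near the floor in SC tumors, at 0 to 0.291 CPM in AB1 and 0.0582 to 0.421 CPM in AE17. In IPL tumors it reached 3.25 CPM in AB1 (median 1.37 CPM) and 3.22 CPM in AE17 (median 1.12 CPM), and in both models 6 of 8 IPL tumors lay above every SC tumor. The IPL tumors that did not were AB1 tumor 6, at 0.233 CPM, and again AB1 tumor 2 and AE17 tumors 1 and 8, with a count of 0 each. Chrnd, the delta subunit, lies next to it on chromosome 1 (87190607 to 87200070, plus strand) and tracked it within groups. With group means removed, Pearson's r on log2 CPM was 0.93 over the 32 tumors, the highest of the 28 pairs of members. The value is a description, and muscle content also varied between tumors within groups. In AB1 Chrnd ran from 0.0531 to 6.602 CPM in IPL tumors and from 0 to 0.350 CPM in SC tumors. In AE17 it ran from 0.0593 to 3.91 CPM in IPL tumors and from 0.349 to 0.952 CPM in SC tumors, so that the AE17 SC floor lay higher than that of AB1 SC. The log2 difference of Chrnd between sites was 1.28 (SE 0.547) in AE17 and 1.68 (SE 0.599) within its lane. In AB1 the low-count filter of the 16-mouse fit left it out, and without that filter it was 4.23 (SE 0.709). Unfiltered values for Chrng and Myod1 in AB1 were 3.68 (SE 0.836) and 3.77 (SE 0.717). In AE17 the filter left out Chrng and Myod1 too, and no fitted site difference is given for them there. Their AE17 means in IPL and SC tumors were 1.38 and 0.203 CPM for Chrng, and 0.830 and 0.365 CPM for Myod1. The fit within lane 3 kept all 8 members past its own filter, and gave 3.91 (SE 1.31) for Chrnd, 3.27 (SE 1.53) for Chrng and 4.28 (SE 1.37) for Myod1. In a fit over all 32 mice, the site difference of Chrnd was larger in AB1 by 2.95 (SE 0.916) on the log2 scale.

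Musk, the junction kinase, was present in every tumor with 3 counts or more. It ran from 1.04 to 4.93 CPM in AB1 IPL and from 0.815 to 1.93 CPM in AB1 SC tumors, and from 0.171 to 1.67 CPM in AE17 IPL and from 0.291 to 1.08 CPM in AE17 SC tumors. The site groups overlapped in both models. The log2 difference was 0.84 (SE 0.319) in AB1 and 0.76 (SE 0.399) in AE17, with 0.94 (SE 0.620) and 0.75 (SE 0.543) within lane.

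In the fit across all genes, the low-count filter left 4 of the 8 members in AB1 (Myog, Mef2c, Chrna1 and Musk) and 5 in AE17 (these and Chrnd). Of the 4, 3 (Myog, Mef2c and Chrna1) passed an adjusted p of 0.05 with a higher level in AB1 IPL tumors, where 12.3% of the 14645 genes tested did so and 10.7% passed with a lower level. Of the 5, 1 (Myog) passed in AE17, where 2.6% of the 14668 genes tested were higher and 3.13% lower in IPL tumors. Since this contrast chose the genes, nothing is read from these counts. The AE17 call for Myog lay at the threshold, and was lost in 12 of the 16 fits that left out 1 mouse, although the log2 difference stayed between 2.80 and 3.47. The difference between the models in the site difference rests on the same values. In the fit of 32 mice, which kept 7 members, Mef2c and Chrnd were among the 20.5% of 15681 genes past the threshold, and with lane as a covariate neither was, so that nothing is read from this count either. Chrnd, with a mean of 0.149 CPM in AB1 SC tumors, was kept in that fit through the groups where it was higher.

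The member levels were next set beside the RNA of mature skeletal muscle, because SC and IPL tumors of both models held such RNA in varying amounts. In bulk tumors, fewer muscle cells and less RNA per muscle cell cannot be told apart. A mature muscle score was taken as the mean log2 CPM of 19 genes of the adult fiber, such as Ckm, the muscle creatine kinase. In AB1, 18 of the 19 were higher in IPL tumors, with a median log2 difference of 3.32. In AE17, 0 of the 19 passed in either direction in edgeR, with a median of -0.56, and 0 had an unadjusted p under 0.05 or passed in DESeq2. The median over all genes was -0.0023 in AB1 and 0.0043 in AE17. The summed level of the list ran from 139 to 7308 CPM in AB1 IPL tumors, from 65.9 to 707 CPM in AB1 SC tumors, from 63.5 to 1246 CPM in AE17 IPL tumors and from 51.2 to 1860 CPM in AE17 SC tumors. Acta1, skeletal muscle actin, set much of the lower end. It stood at 51.7 CPM in AE17 IPL tumor 1 and 61.3 CPM in AE17 IPL tumor 8, where Ckm stood at 0 and 0.114 CPM.

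Tumors with little muscle RNA had little or no Myog. AE17 IPL tumors 1 and 8 had Myog, Myod1 and Chrng counts of 0. AE17 SC tumors 1 and 4, with Ckm at 0.175 and 0.120 CPM, also had no Myog or Myod1 count. AE17 SC tumor 4 had 7 Chrng counts (0.421 CPM), the highest of its group, and 14 Chrnd counts, and tumor 1 had 1 Chrng and 9 Chrnd counts. Chrna1 stood at 6.65 and 2.56 CPM in the 2 IPL tumors and 2.56 and 2.41 CPM in the 2 SC tumors. Mef2c stood at 30.7 and 33.2 CPM in the 2 IPL tumors.

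The other 6 AE17 SC tumors had muscle RNA and Myog, with Myog at 2 to 16 counts. AE17 SC tumor 6 had the highest Ckm of its model, 94.8 CPM, and 0.815 CPM of Myog. AE17 IPL tumors 6 and 7, with Ckm at 28.95 and 19.99 CPM, had Myog at 10.7 and 8.91 CPM, the highest of their group. AE17 IPL tumor 5 had the most muscle RNA of that group, with Ckm at 57.3 CPM, but 1.21 CPM of Myog. Per 1000 counts of the mature muscle list, Myog in AE17 IPL tumors ran from 0 to 11.98 with a median of 4.31, and in AE17 SC tumors from 0 to 1.49 with a median of 0.299. The groups overlapped, since AE17 IPL tumors 1 and 8, at 0, and tumor 5, at 0.968, lay below AE17 SC tumor 8, at 1.49. Pooled over the 8 tumors, this ratio was 6.08 in AE17 IPL tumors and 0.453 in AE17 SC tumors. In AB1 the same ratio was 1.82 in IPL and 1.38 in SC tumors. For Chrng the pooled ratios were 2.10 and 0.214 in AE17, and 0.369 and 0.233 in AB1. Myod1 and Chrnd were also higher per muscle count in AB1 IPL than in AB1 SC tumors, at 0.599 and 0.366 and at 0.792 and 0.349. Chrna1, Musk and Mef2c were lower, at 3.49 and 9.58, 0.694 and 3.28, and 9.93 and 38.6. Pax7 had too few counts for this ratio. In AE17 IPL and SC tumors the ratios were 9.50 and 3.33 for Chrna1 and 54.8 and 41.4 for Mef2c. Tmem8c, the myoblast fusion protein myomaker, which was chosen after its values were seen, gave 1.35 and 0.0794 in AE17 and 0.139 and 0.166 in AB1. Its AE17 SC ratio rested on few counts, at most 5 in a tumor (tumor 2). With the muscle score as a covariate, the log2 site difference of Myog went from 3.48 to 0.75 (SE 0.456) in AB1 and from 3.19 to 3.57 (SE 0.617) in AE17, and that of Chrna1 from 1.65 to 1.15 (SE 0.228) in AB1 and from 0.99 to 1.01 (SE 0.269) in AE17. Those of Mef2c and Musk in AB1 became 0.55 (SE 0.313) and 0.30 (SE 0.428).

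**Figure D2:**
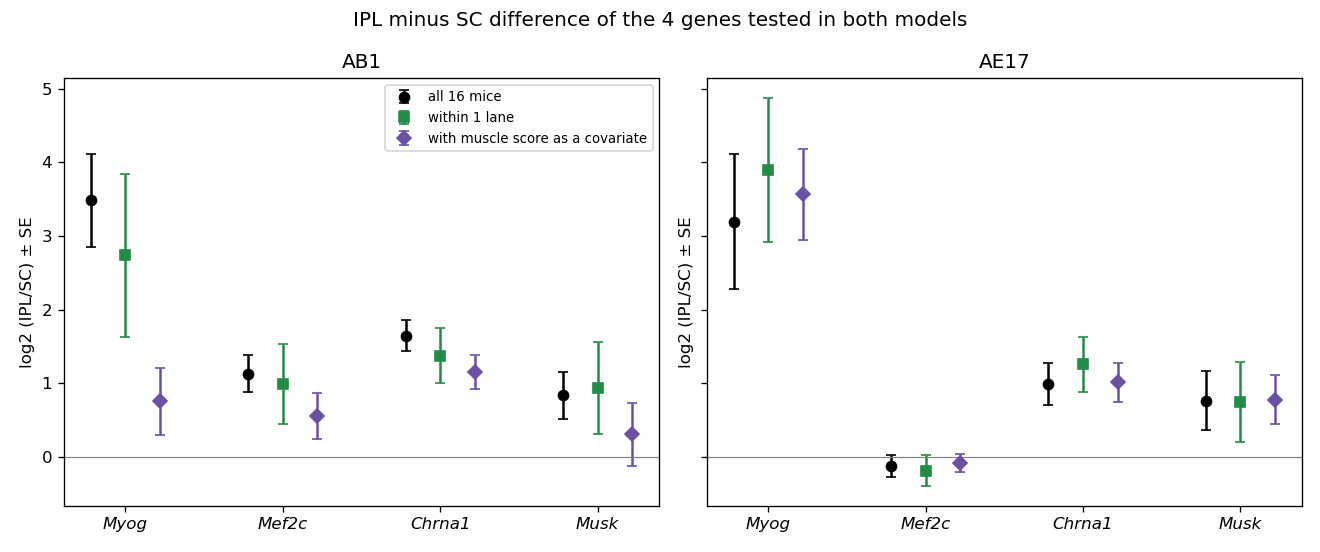
Log2 difference between IPL and SC tumors (vertical axis, with SE bars) of the 4 genes tested in both models, over all 16 mice of a model, within the 1 lane holding both sites, and with the mature muscle score as a covariate. The Myog value in AB1 dropped to 0.75 with the muscle score, and that in AE17 stood at 3.57.

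**Figure D3:**
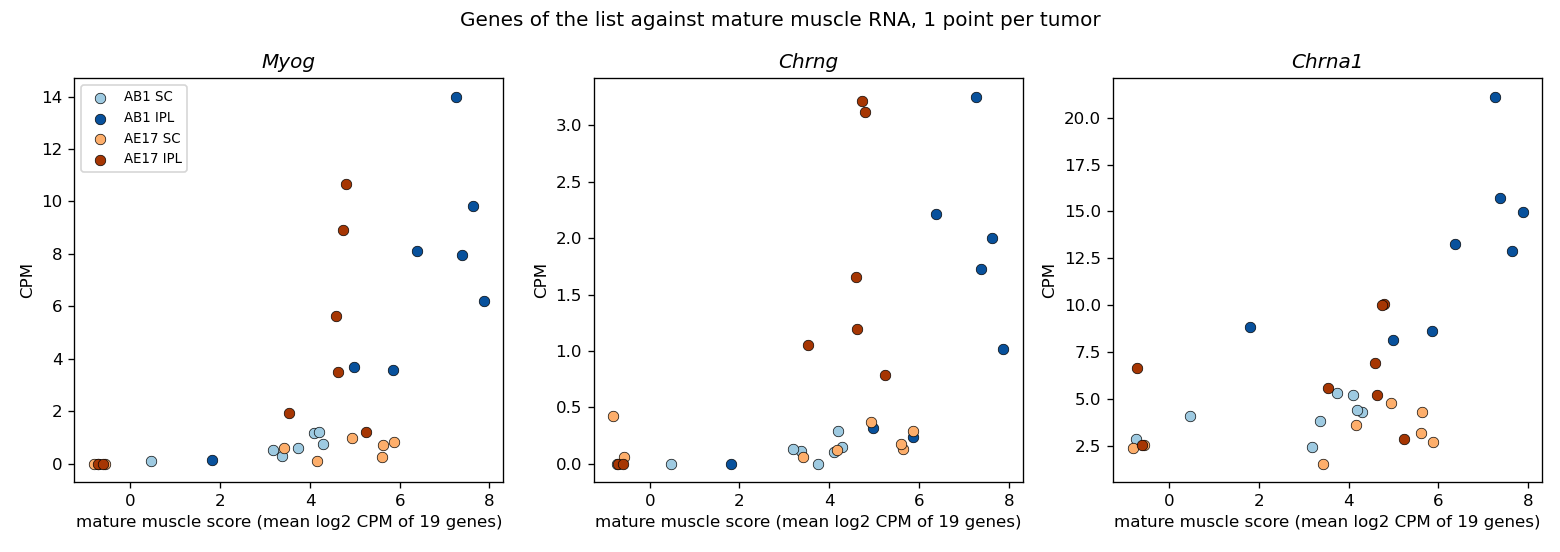
CPM of Myog, Chrng and Chrna1 (vertical axes) against the mature muscle score, the mean log2 CPM of 19 adult fiber genes (horizontal axis), 1 point per tumor and 8 tumors per group. AE17 SC tumors with a score above 3 stay under 1 CPM of Myog, while AE17 IPL tumors 6 and 7 reach 10.7 and 8.91 CPM at a like score.

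Within each IPL group the relation to the score was tested by an exact permutation test over the pairings of the 8 tumors, two-sided, for 15 relations (Pax7 was left out in AE17, where too few tumors had 3 counts). In AB1 IPL tumors, Pearson's r was 0.94 for Myog (exact permutation p = 0.0058, adjusted p = 0.0211), 0.94 for Myod1 (adjusted p = 0.0211), 0.85 for Pax7 (adjusted p = 0.0153), 0.87 for Chrng (adjusted p = 0.0211) and 0.92 for Chrnd (adjusted p = 0.0228). For Chrna1 it was 0.70 (adjusted exact permutation p = 0.056), for Mef2c 0.57 and for Musk 0.45. In AE17 IPL tumors r was 0.91 for Myog (exact permutation p = 0.0142, adjusted p = 0.0298), 0.92 for Myod1, 0.93 for Chrng, 0.92 for Chrnd and 0.81 for Musk, and 0.34 for Chrna1 and 0.48 for Mef2c, which did not pass. In all, 10 of the 15 passed an adjusted p of 0.05. The share of all genes that would pass the same test was not examined, so this count is not particular to the members. By rank the relations were weaker: Spearman's rho for Myog was 0.62 in AB1 (exact permutation p = 0.115) and 0.61 in AE17 (p = 0.118), and in the whole family the smallest adjusted p was 0.161.

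The AE17 relations rested on tumors 1 and 8. Without these 2, the farthest from the median score, r was 0.13 for Myog, 0.13 for Chrng, -0.05 for Chrnd, -0.36 for Musk and 0.52 for Myod1. Without AB1 IPL tumors 2 and 8, r was 0.55 for Myog, 0.78 for Myod1, 0.90 for Pax7, 0.53 for Chrng and 0.49 for Chrnd. All AB1 IPL libraries shared lane 3. Of the AE17 IPL libraries, 5 were on lane 2 and 3 on lane 1, too few for a relation within lane.

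The gamma subunit is replaced by the epsilon subunit, encoded by Chrne, when the fetal receptor matures, so both genes were compared per length of exon. Chrne, chosen as the counterpart of Chrng, overlaps an annotated gene on the other strand (4930544D05Rik), and without strand in the counting their reads cannot be told apart. In AB1 IPL tumors 214 Chrng and 60 Chrne counts gave a ratio per length of 1.45, and Chrng was above Chrne in 5 of 8 tumors. In AB1 SC tumors 14 and 124 counts gave 0.0458, with 0 of 8 tumors higher for Chrng. In AE17 IPL tumors 187 and 14 counts gave 5.42, with 6 of 8 tumors higher for Chrng, and in AE17 SC tumors 27 and 29 counts gave 0.378, with 0 of 8. Chrne itself ran from 0.368 to 1.36 CPM in AB1 SC and from 0.0531 to 0.764 CPM in AB1 IPL tumors. In AB1 SC tumor 5, where Ckm stood at 0.349 CPM, Chrne was still at 0.989 CPM. The counts behind single tumors were small, with at most 27 for Chrne.

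**Figure D4:**
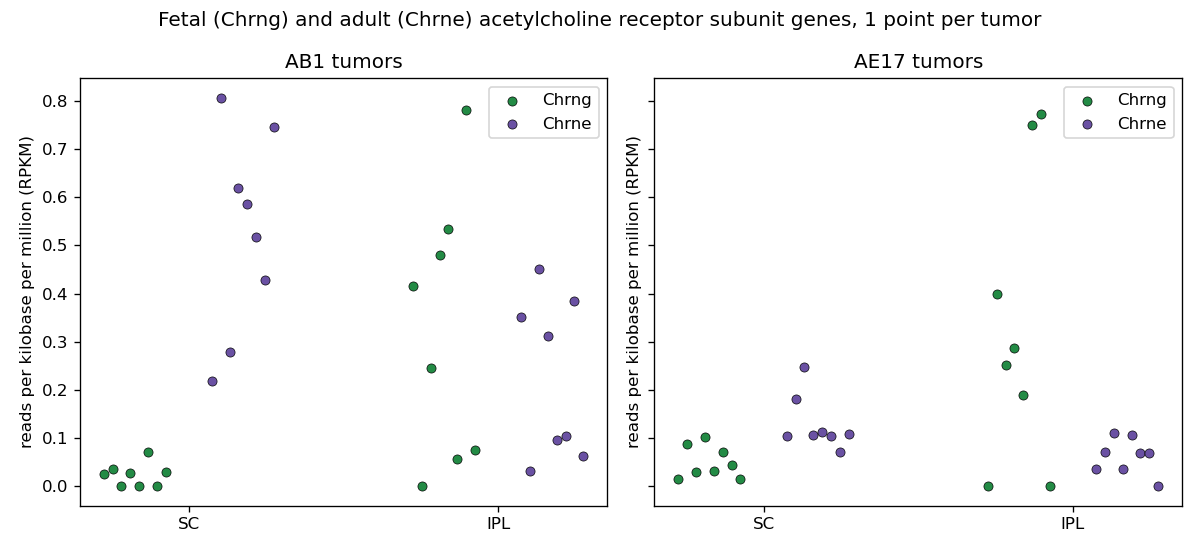
RPKM, the CPM per kilobase of exon (vertical axis), of Chrng, the fetal gamma subunit, and Chrne, the adult epsilon subunit, in AB1 tumors (left) and AE17 tumors (right), 1 point per tumor, 8 per group. In SC tumors Chrng lies under Chrne in all 16, and in IPL tumors it lies above Chrne in 5 of 8 in AB1 and 6 of 8 in AE17.

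The models were then compared at each site. The genes were not chosen on this contrast, and edgeR's quasi-likelihood test with Benjamini-Hochberg adjustment over all genes tested applies to it. In SC tumors 4 members were tested. Mef2c was lower in AB1 by a log2 difference of -1.25 (SE 0.137, adjusted p = 3.26e-07), with all 8 AB1 SC tumors below every AE17 SC tumor. Musk was higher in AB1 by 1.38 (SE 0.269, adjusted p = 0.000213), with 6 of 8 AB1 SC tumors above every AE17 SC tumor. Myog differed by 0.43 (SE 0.663, interval of 2 SE from -0.89 to 1.76, adjusted p = 0.577) and Chrna1 by 0.36 (SE 0.211, interval from -0.059 to 0.786, adjusted p = 0.142). So 1 of the 4 was higher and 1 lower, where 31.2% of the 14718 genes tested were higher and 32.5% lower in AB1 SC tumors, and 1 of the 4 did not overlap, as 31.4% of genes did not. At 1 gene of 4, these shares do not stand apart from the background. Of the vascular lists, 6 of 7 endothelial and 2 of 4 smooth muscle and pericyte genes were also lower in AB1 SC tumors, and none higher. A relation to Mef2c was not tested. Chrnd, left out by the filter, was lower in AB1 SC tumors without the filter, by -2.17 (SE 0.445, edgeR adjusted p = 0.00027), and in DESeq2, by -2.22 (SE 0.461). With lane in the fit of 32 mice it differed by -1.54 (edgeR adjusted p = 0.326).

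In IPL tumors 7 members were tested. Chrna1 was higher in AB1 by 1.07 (SE 0.280, adjusted p = 0.0033), with 5 of 8 AB1 tumors above every AE17 tumor. Musk was higher by 1.499 (SE 0.419, adjusted p = 0.00509), also in 5 of 8. Myog differed by 0.77 (SE 0.807, interval from -0.848 to 2.38, adjusted p = 0.433), Myod1 by 1.42 (SE 0.690, adjusted p = 0.0849), Chrnd by 0.79 (SE 0.647, adjusted p = 0.307), Chrng by -0.01 (SE 0.756, adjusted p = 0.991) and Mef2c by 0.04 (SE 0.261, adjusted p = 0.91). The 2 of 7 that were higher compare with 30.5% of 14886 genes, 28.6% of genes were lower, and none of the 7 was free of overlap, as 28.5% of genes were. Pax7 was left out by the filter. DESeq2 and edgeR without the filter called it higher in AB1, but no AE17 IPL tumor held more than 1 count of it, and no fold or p is given. The interval of Chrng ran from -1.52 to 1.502, so that neither it nor that of Myog shows that the models had the same level.

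Mature muscle RNA moved with this comparison, 15 of its 19 genes being higher in AB1 IPL tumors. With the muscle score as a covariate the Chrna1 and Musk differences became 0.67 (adjusted p = 0.0785 by edgeR) and 0.76 (adjusted p = 0.115), while those of Myog, Chrnd and Chrng became -1.61 (SE 0.562), -1.26 (SE 0.465) and -2.73 (SE 0.662), lower in AB1. Since the genes were chosen on Myog in AE17 IPL tumors relative to muscle RNA, these last values are a description, with no test. In SC tumors the mature muscle list had a median log2 difference of -1.42, with 3 of its 19 genes lower in AB1. With the score as a covariate there, 3 of the 4 members tested passed, against 2 without it, among 9305 of 14718 genes. This count is likewise a description. No lane held IPL tumors of both models or SC tumors of both. With lane as a covariate over all 32 mice, Mef2c in SC tumors differed by -1.38 (edgeR adjusted p = 0.0102) and Musk by 1.42 (adjusted p = 0.117), and in IPL tumors Chrna1 differed by 0.93 (adjusted p = 0.178) and Musk by 1.67 (adjusted p = 0.0888).

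**Figure D5:**
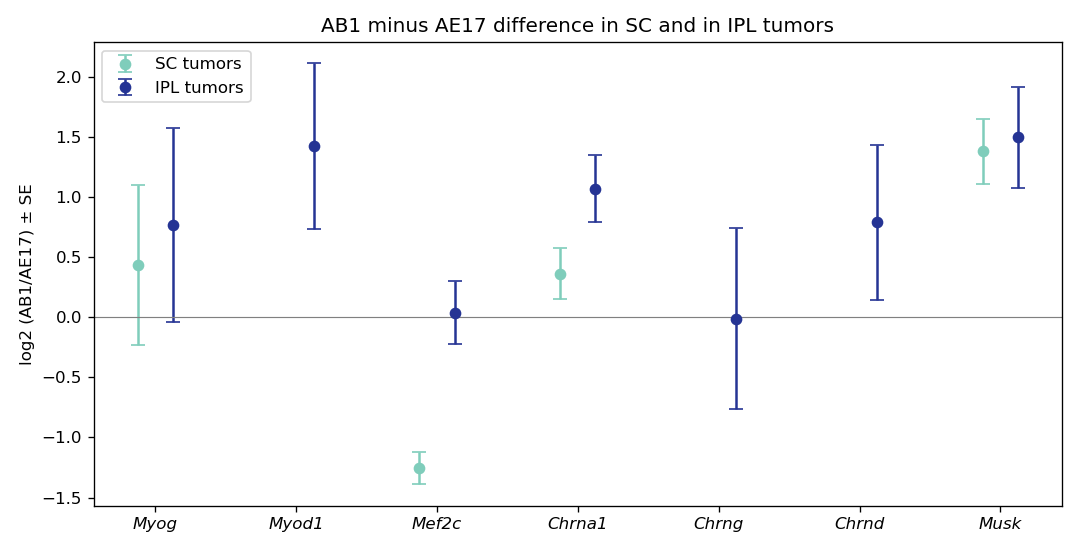
Log2 difference between AB1 and AE17 tumors (vertical axis, SE bars, 8 against 8 mice) of the members tested in SC tumors (light) and IPL tumors (dark). Mef2c in SC tumors lies at -1.25 and Musk lies above 0 at both sites, with Chrna1 at 1.07 in IPL tumors.

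Other genes of the junction, of denervation and of muscle precursors were followed in lists that do not hold the members. Over all genes tested, 12.3% were higher and 10.7% lower in AB1 IPL tumors, and 2.6% were higher and 3.13% lower in AE17 IPL tumors. At the neuromuscular junction, 4 of 11 genes tested were higher in AB1 IPL tumors and 1 lower (Chrne), with a median log2 difference of 0.28. In AE17, 2 of 11 were higher and none lower, with a median of 0.27. Agrn, whose product agrin signals to Musk through Lrp4, was higher in both, by 0.28 (SE 0.0760) in AB1 and 0.43 (SE 0.111) in AE17. Chrnb1, the beta subunit, was higher in AE17 by 0.61 (SE 0.118) and had a value of 0.28 (SE 0.131) in AB1. It stood at 41.3 CPM in AB1 IPL tumor 2, which had the least muscle RNA of its group, and at 19.2 CPM in AE17 IPL tumor 1, where Ckm was at 0. Prkar1a, a regulatory subunit of protein kinase A, and Etv5, an ETS factor of the junction, did not pass in AB1, at 0.06 (SE 0.0428) and 0.03 (SE 0.0950) log2 units.

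Of the denervation and atrophy genes, 7 of 13 tested were higher in AB1 IPL tumors and 1 was lower, with a median of 0.23. In AE17, 3 of 14 were higher and none was lower, with a median of 0.25. The 7 in AB1 included Trim63, the atrophy ubiquitin ligase, and the developmental myosins Myh3 and Myh8. Per 1000 mature muscle counts, pooled Myh3 was 2.48 in IPL and 3.00 in SC tumors of AB1, and pooled Myh8 was 19.3 and 24.7. In AE17 pooled Myh3 was 12.4 in IPL and 5.58 in SC tumors, and pooled Myh8 was 24.2 and 26.4. Trim63 ran from 0.585 to 60.1 CPM in AB1 IPL and from 0.0582 to 2.97 CPM in AB1 SC tumors, a log2 difference of 4.55 (SE 0.746). It was not set against muscle RNA, whose list had a median log2 difference of 3.32 in the same comparison. The 3 in AE17 included Cdkn1a and Gadd45a, which are also stress response genes outside muscle. Cdkn1a differed by 0.32 (SE 0.0888) in AE17 and -0.05 (SE 0.128) in AB1. Runx1, a factor induced in denervated muscle and used by blood cells, was lower in AB1 IPL tumors by -0.21 (SE 0.0729), and Foxo3, an atrophy regulator, was higher by 0.23 (SE 0.0720).

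Of the satellite cell and fusion genes, 4 of 5 tested were higher in AB1 IPL tumors (Cdh15, Cdon, Dag1 and Heyl) with a median of 0.92. In AE17, 0 of 7 passed in edgeR, where 2 had an unadjusted p under 0.05 and DESeq2 called 2 of 10, Cdh15 and Tmem8c. Tmem8c ran from 0 to 2.354 CPM in AE17 IPL tumors and from 0 to 0.305 CPM in AE17 SC tumors. Of the partners and inhibitors of the regulatory factors, 4 of 12 were higher in AB1 IPL tumors (among them Id3, Smyd1 and Tcf3) and 1 of 13 was lower in AE17 (Twist2). Tcf3, an E-protein partner, differed by 0.25 (SE 0.0834) in AB1 and -0.13 (SE 0.0628) in AE17. Tcf12, Tcf4 and Mef2a, which had the highest mean levels of this list beside Tcf3, differed by 0.09, 0.30 and -0.10 in AB1. In AE17 they differed by -0.37, -0.16 and 0.11. None of them passed in edgeR, and DESeq2 called Tcf12 in AE17.

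Likeness was taken over 13977 genes whose mean level reached 1 CPM. The 5 whose log2 CPM was most like that of Myog over the 32 tumors were Adprhl1 (r = 0.94), Myl4 (0.92), Des (0.92), Klhl40 (0.92) and Synpo2l (0.91). With group means removed they were Adprhl1 (0.93), Synpo2l (0.93), Myh3 (0.92), Des (0.91) and Cap2 (0.91). The 5 most like Chrna1 were Sync (0.86), Rrad (0.85), Tnnt1 (0.83), Hmcn2 (0.81) and Usp13 (0.81), and with group means removed Usp13 led at 0.72. The 5 most like Mef2c were Nox4, Scrn3, Tcaf1, Fyco1 and Fap, at 0.86 to 0.85, and with group means removed the first was Mospd1 at 0.84. These correlations share the muscle content and depth of the tumors and are descriptions.

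Markers of other cells varied too, and their part in the member values was not tested. The 7 heart muscle genes summed to 11.4 to 204 CPM in AE17 IPL and 8.84 to 15.7 CPM in AE17 SC tumors, and to 7.02 to 83.2 CPM in AB1 IPL and 7.36 to 15.04 CPM in AB1 SC tumors. AE17 IPL tumor 5, at 204 CPM, had 1.21 CPM of Myog, and AE17 IPL tumors 6 and 7 had heart sums of 44.3 and 54.9 CPM. Of 4 heart genes tested in each model, Myl4 and Tnnt2 were higher in IPL tumors of both. Tnni3 was lower in AB1 IPL tumors, by -0.88 (SE 0.220), and Mybpc3 did not pass in either model. Myl4 was also among the genes most like Myog, and the source of the heart sums was not tested. The 8 B cell genes, a lineage in which Mef2c is used, summed to 61.9 to 326 CPM in AE17 IPL and 14.9 to 66.2 CPM in AE17 SC tumors, and to 20.7 to 101 CPM and 25.3 to 35.6 CPM in AB1. The 6 Schwann cell and nerve genes summed to 22.5 to 62.6 CPM in AE17 IPL, 24.1 to 38.4 CPM in AE17 SC, 34.1 to 60.5 CPM in AB1 IPL and 32.9 to 109 CPM in AB1 SC tumors. Of 8 mesothelial and mesothelioma genes listed, 5 had a row, and they summed to 53.6 CPM or more in every tumor, led by Cdh2. The mesothelial markers Upk3b and Lrrn4 had medians of at most 0.0608 CPM in SC tumors of both models. Their highest values in a single tumor were 31.4 and 23.9 CPM in AB1 IPL and 6.55 and 5.11 CPM in AE17 IPL. These are not medians, and the means over all 32 tumors were 1.72 and 1.49 CPM. Some vascular markers differed by site in AB1, and a relation to Mef2c was not tested. The 6 smooth muscle and pericyte genes, among them Des, which skeletal muscle also uses, summed to medians of 541 CPM in AB1 IPL and 88.8 CPM in AB1 SC tumors, and of 204 and 245 CPM in AE17. Of 4 tested in AB1, Cspg4 and Des were higher in IPL tumors, and of 4 in AE17, Tagln was higher and Cspg4 lower. Rgs5 stood at -0.31 (SE 0.211) in AB1 and did not pass. Des had the highest mean level of the list, 165 CPM over the 32 tumors, and a log2 difference of 3.29 (SE 0.698) in AB1. The 7 endothelial genes summed to medians of 188 and 150.2 CPM in AB1 and 191 and 184 CPM in AE17. Of 7 endothelial genes tested, Cdh5 and Tek were higher in AB1 IPL tumors, where 12.3% of all genes tested were. The others did not pass, with Pecam1 at -0.11 (SE 0.108). In AE17, only Tie1 of the 7 was higher in IPL tumors, where 2.6% of genes were. Of 7 macrophage genes tested, C1qa, Cd68 and Mrc1 were lower in AB1 IPL tumors, and in AE17 0 of 7 passed in edgeR, where 2 had an unadjusted p under 0.05, and 0 in DESeq2. No heart, B cell, nerve or mesothelial gene of these lists was at 0 in every tumor of a group.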

How the data were processed

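Whole tumor RNA of 32 mice was sequenced with 50-base single-end reads. The authors aligned the reads with HISAT2 (version 2.0.4) after bcl2fastq (1.8.4) and deposited gene counts, whole numbers with no normalization, made with SummarizeOverlaps. The strand setting is not given in the sources used here. The deposited gene identifiers were matched to GENCODE M21 (GRCm38), from which positions and exon lengths were taken. CPM were computed with TMM library sizes, and RPKM from the union of exons. Log2 CPM used a prior count of 2.

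Groups followed the labels. Each comparison was fitted by edgeR 4.0.16 (quasi-likelihood test, robust, filterByExpr, 8 against 8 mice), with Benjamini-Hochberg adjustment over all genes tested and a threshold of 0.05. The procedure was checked on simulated data. DESeq2 1.42.0, other scalings and filters, the replicate block, lane and the muscle score served as alternatives. Lanes were read from the alignment names, and 0 columns lacked a sample. Replicates are separate mice. The members, gene lists and tests were chosen with earlier results of these data known. List genes named by rule came from the 4 with the highest mean CPM of each list, not all of which are given. Other list genes were named after their values were seen. Intervals are of 2 SE. Counting limits cover counting error only.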

Additional observations from a re-analysis of the deposited data

Results flagged for a closer look

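The site difference of Mef2c, the MADS-box factor, was larger in AB1 than in AE17, by 1.27 (SE 0.306) on the log2 scale in the edgeR fit over all 32 mice. The genes were chosen on IPL against SC values, which this difference is made of, so that it is a description and not independent evidence. The AB1 and AE17 site differences were 1.13 and -0.12. That of Chrnd, the delta receptor subunit, was larger in AB1 by 2.95 (SE 0.916), with AB1 SC tumors between 0 and 0.350 CPM and AE17 SC tumors between 0.349 and 0.952 CPM. With lane as a covariate the values were 1.23 and 2.28, and neither was past the threshold. No member had a tumor standing apart from its group by Dixon's criterion in 32 sets of 8 tumors.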

How the results depend on the processing

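The AB1 site comparison called 3374 genes and 3 members. The muscle score gave 1200 genes and 1 member, lane 386 and 1, and the shared lane alone, with fewer mice, 169 and 0. DESeq2 called 4497 of 21160 genes and 7 members, and no filter 3805 of 28091 and 6. The fit of 32 mice gave 4296 of 15681 and 6, and fits without 1 mouse gave 3 to 6 members. The AE17 site comparison called 840 genes and 1 member. DESeq2 gave 1768 genes and 3 members, no filter 550 and 0, the fit of 32 mice 1324 and 3, lane 1 and 0, and the shared lane alone 14 and 0. At least 10 counts in every mouse gave 731 genes and 0 members, the replicate block 661 and 0, and the muscle score 1145 and 2. Fits without 1 mouse gave 0 to 2 members and 316 genes (without AE17 IPL 4) to 2066 (without AE17 SC 1). The Myog call in AE17 was lost without any 1 of AE17 IPL tumors 2, 3, 4, 6 or 7 or AE17 SC tumors 2 to 8. Between models, lane in the fit of 32 mice, chosen after seeing the data, gave 5268 genes against 9370 and 1 member against 2 in SC tumors, 5008 against 8793 and 0 against 2 in IPL tumors, and 117 against 3212 and 0 against 2 for the difference of site differences. The fit of 32 mice tested 15681 genes, and the 16-mouse fits of SC and IPL tumors 14718 and 14886. At least 10 counts in every mouse gave 1 member in each of these 3, with fewer genes tested. Reversals were of values that had not passed. In IPL tumors, the muscle score gave -1.61 for Myog, -0.65 for Myod1, -1.26 for Chrnd and -0.39 for Mef2c. Mef2c was also -0.12 with the replicate block, -0.15 with lane, and -0.15 to 0.13 in fits without 1 mouse. Chrng was 0.044 with total counts, 0.12 with the block, 0.032 with lane, and -0.33 to 0.29 in fits without 1 mouse. For the difference of site differences, lane gave -1.10 for Myog and -0.0076 for Chrng. Where not stated, the cause was not tested. Replicate numbers did not pair the mice, with correlations of same-numbered tumors from -0.367 to 0.289, and the block gave 2263, 661, 8847, 8265 and 2823 genes for the 5 comparisons. The other values kept their direction and their side of the threshold, apart from 8 member values that newly passed and 20 that no longer did. Depth limits Pax7, Chrng and Chrne, which had few counts per tumor.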
